A study of Rattus norvegicus with 5 samples.

Results

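Oligodendrocyte precursor cells (OPCs) of the rat ventral tegmental area (VTA) were taken from single nuclei RNA sequencing (snRNA-seq) libraries by a rule on their marker genes, and 828 of the 35234 nuclei that passed the depth filters met it. A nucleus had at least 600 unique molecular identifiers (UMIs, the count of captured RNA molecules), more than 200 and fewer than 5000 genes and under 5% mitochondrial UMIs. It carried at least 2 of *Pdgfra*, *Cspg4* and *Vcan* with at least 3 UMIs summed over them. It also had *Mog*, a gene of the outer myelin sheath, below 10 UMIs per 10000, no UMI of *Dcn*, *Colec12*, *Cldn5* or *Cx3cr1*, which mark fibroblasts, endothelium and microglia, and at most 1 UMI of the neuronal gene *Nyap2*. These 9 genes chose the nuclei, so their levels are a description and carry no test.

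The study prepared nuclei from frozen VTA punches of 5 adult male Sprague-Dawley rats, with both sides of each rat combined into 1 library. All 5 rats belonged to 1 condition, labelled saline (drug-naïve in the study's own description), so there was no treated group and no comparison between treatments. The labels give the tissue as brain. The comparisons were therefore between the OPCs and other nuclei of the same rats: all 34406 other nuclei, 8718 oligodendrocytes chosen by *Mog*, 1529 astrocytes chosen by *Slc1a2*, *Aqp4* and *Gja1*, and 2880 neurons chosen by *Nyap2*. The 34406 also held 200 microglia and 336 vascular nuclei by their markers, but most of the 34406 met none of these cell type rules. They count as nuclei only because they passed the depth filters. Rat 2 gave 18601 of the 34406, with a median of 959 UMIs.

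OPCs are the dividing glia of the adult brain and the source of new myelinating oligodendrocytes. Platelet-derived growth factor acting on its receptor, which *Pdgfra* encodes, keeps them proliferating, and as they differentiate they lose that receptor, pass through a short premyelinating stage and switch on myelin genes. They are spread through grey and white matter, carry a coat of chondroitin sulfate proteoglycans such as NG2, the product of *Cspg4*, and receive synapses from neurons through glutamate and GABA receptors.

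OPCs made up 1.79% of the nuclei of rat 1 (49 of 2733), 1.72% of rat 2 (326 of 18927), 1.93% of rat 3 (76 of 3948), 3.73% of rat 4 (194 of 5204) and 4.14% of rat 5 (183 of 4422). The mean was 2.66% ± 1.17 (SD, n = 5). The exact 95% binomial intervals were 1.33% to 2.36% in rat 1, 1.54% to 1.92% in rat 2 and 1.52% to 2.40% in rat 3, and those of rat 4 (3.23% to 4.28%) and rat 5 (3.57% to 4.77%) lay above them. Such intervals cover counting error only. The share depends on how many shallow barcodes are counted as nuclei, and with a minimum of 1500 UMIs the mean was 4.02%. The shares of rats 1 to 5 were then 4.61%, 4.15%, 2.0%, 4.11% and 5.22%, so that rat 5 was still the highest and rat 4 was below rats 1 and 2.

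The OPCs were deeper than the nuclei around them in 4 of 5 rats. The median OPC held 7821 UMIs in rat 1, 3376.5 in rat 2, 1108.5 in rat 3, 4207 in rat 4 and 3844 in rat 5, and the median of the other nuclei was 1203, 959, 1119, 3311.5 and 2670. The rule asks for 3 marker UMIs, which a deep nucleus reaches more easily. In all, the OPCs held 3395428 UMIs, of which rat 3 gave 135009, so that the values of rat 3 are the least precise. Libraries shared 0 barcodes of OPCs. Levels are given as UMIs per 10000 UMIs summed over the OPCs of a rat, and they can be compared between groups of nuclei for 1 gene, not between genes.

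**Figure D1:**
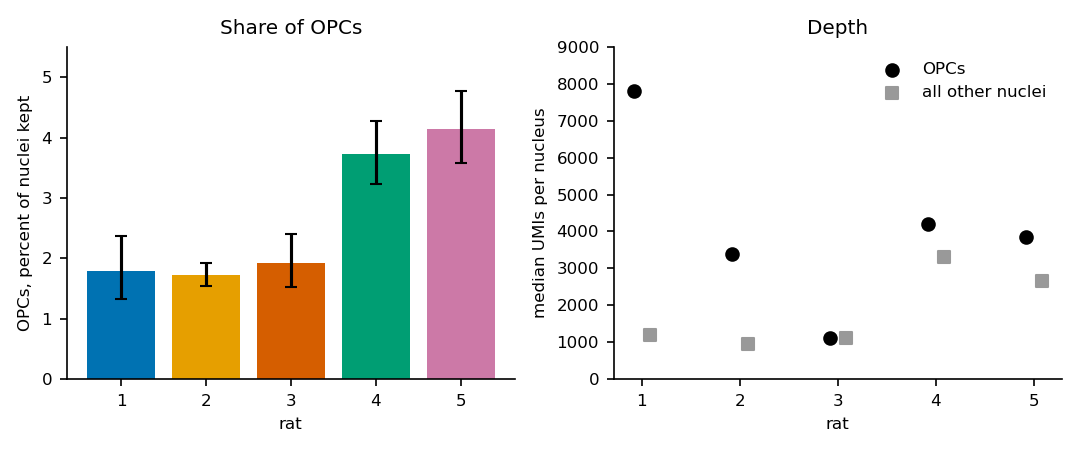
Share of nuclei that met the OPC rule, in percent with exact 95% binomial intervals (left), and median UMIs per nucleus of OPCs and all other nuclei (right), for each of the 5 rats. Rats 4 and 5 had shares of 3.73% and 4.14% against 1.72% to 1.93% in the other 3 rats at 600 UMIs, where at 1500 UMIs rat 4 was below rats 1 and 2, and the OPCs of rat 3 had a median of 1108.5 UMIs, close to the 1119 of the other nuclei of that rat.

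The rule genes were far above the other nuclei in each rat, as the selection requires. *Pdgfra*, which encodes the receptor for platelet-derived growth factor, stood at 9.70, 7.54, 13.1, 9.19 and 9.05 UMIs per 10000 in rats 1 to 5, against 0.125 to 0.412 in the other nuclei. *Vcan*, the chondroitin sulfate proteoglycan versican, stood at 19.2, 15.3, 11.7, 25.9 and 21.3, against 0.482 to 0.981. *Cspg4* stood at 4.29, 2.32, 0.593, 3.55 and 3.46, against 0.0393 to 0.151. All 3 genes were detected in 426 of the 828 nuclei (51.4%), *Pdgfra* with *Vcan* in another 340 (41.1%), *Cspg4* with *Vcan* in 50 and *Pdgfra* with *Cspg4* in 12. In rat 3, 89.5% of the OPCs had *Pdgfra* and *Vcan* without *Cspg4*.

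*Megf11*, a transmembrane protein with epidermal growth factor repeats, is the marker of this cell type that the rule did not use, and it followed the label in all 5 rats. Its level was 13.7, 9.45, 2.96, 16 and 12.8 UMIs per 10000 in the OPCs of rats 1 to 5, and 0.274 to 0.712 in the other nuclei. Every OPC value was above every value of the others. On the log2 scale the fold change was 4.64 with an SE of 0.25, and the adjusted p of edgeR was 3.0e-10, with OPCs higher in 5 of 5 rats. *Megf11* was detected in 690 of 828 OPCs (83.3%), 4.08% of oligodendrocytes, 4.19% of astrocytes and 23.2% of neurons (up to 36.2% in a rat). The median depth of oligodendrocytes was 942.5 to 4085 UMIs by rat. To even out depth, nuclei with at least 1000 UMIs were thinned to 1000 UMIs, and shallower ones were left out. This kept 794 of the OPCs (46 of 76 in rat 3), 8093 oligodendrocytes, 1214 astrocytes and 2840 neurons. Of these 62.1%, 1.51%, 2.06% and 6.34% had *Megf11*. Of the 68 OPCs that just met the rule with 3 marker UMIs, 47.1% had *Megf11*, and of the 106 nuclei just outside it with 2 marker UMIs, 22.6% did. That gap was widest in rat 2 (66.7% against 24%), and in rat 3 (28.6%) and rat 4 (33.3%) the shares inside and outside were equal.

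Rat 3 stood apart. *Megf11* was found in 39.5% of its OPCs, against 81.6% to 93.4% in the other rats, and its level was the lowest of the 5. *Sox10*, a transcription factor of the whole lineage, was 0.370 UMIs per 10000 in its OPCs and 2.32 to 2.75 in the others, and in its oligodendrocytes too it was 0.386 against 1.98 to 2.36. *Id2*, an inhibitor of differentiation, was 3.33 in its OPCs and 0.122 to 0.252 in the others, and in the free RNA of that library, read from barcodes under 100 UMIs, it was 14.4 against 0.274 to 0.460. The rat is 1 library of 1 animal, and whether depth, free RNA or the animal moved these values was not tested. Results are therefore also given without rat 3 where that matters.

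Markers of other cell types were also counted in the OPCs. Neuron markers outside the rule (8 genes) summed to 15.4 to 20.3 UMIs per 10000 over the 5 rats, against 41.2 to 68.8 in neurons, 4.34 to 13.7 in oligodendrocytes and 31.1 to 50.2 in free RNA. Astrocyte markers (8 genes) summed to 2.42 to 12, against 60.6 to 86.1 in astrocytes and 7.25 to 55.4 in free RNA. These 8 include *Slc1a2*, *Aqp4* and *Gja1*, which chose the astrocytes, so the level in astrocytes follows in part from that choice. Markers of microglia (5 genes), endothelium (4 genes) and fibroblasts and pericytes (6 genes) summed to at most 1.11, 0.247 and 0.214. Against all other nuclei, 7 of 8 neuron markers tested, 6 of 8 astrocyte markers, 4 of 4 microglia markers, 3 of 3 endothelial markers and 2 of 2 fibroblast and pericyte markers were lower in OPCs and none was higher, beside 21.6% of all genes lower. Without the replicate block 2, 1, 2, 2 and 0 of them were lower, beside 694 of 12469 genes. The lower values of neuron, microglia, endothelial, fibroblast and pericyte markers follow in part from the rule. It left out each nucleus with a UMI of *Cx3cr1*, *Cldn5*, *Dcn* or *Colec12* or with 2 or more of *Nyap2*, and it held no astrocyte gene. Against oligodendrocytes 3 of 7 neuron markers and 3 of 7 astrocyte markers were higher in OPCs and 0 lower, beside 26.0% and 21.7% of all genes. The examples against all other nuclei were *Slc6a3*, the dopamine transporter (log2 fold change -1.35), *Slc4a4*, an astrocyte bicarbonate carrier (-1.28), *Ptprc*, the leukocyte antigen CD45 (-2.54), and *Flt1*, an endothelial receptor for vascular endothelial growth factor (-2.59). Of the OPCs, 68 also met the astrocyte rule, and 715 of the 828 had at least 1 *Mog* UMI or 2 UMIs summed over astrocyte or neuron markers. How far free RNA and mixed droplets moved the results below was not tested beyond the counts without those 715 nuclei.

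**Figure D2:**
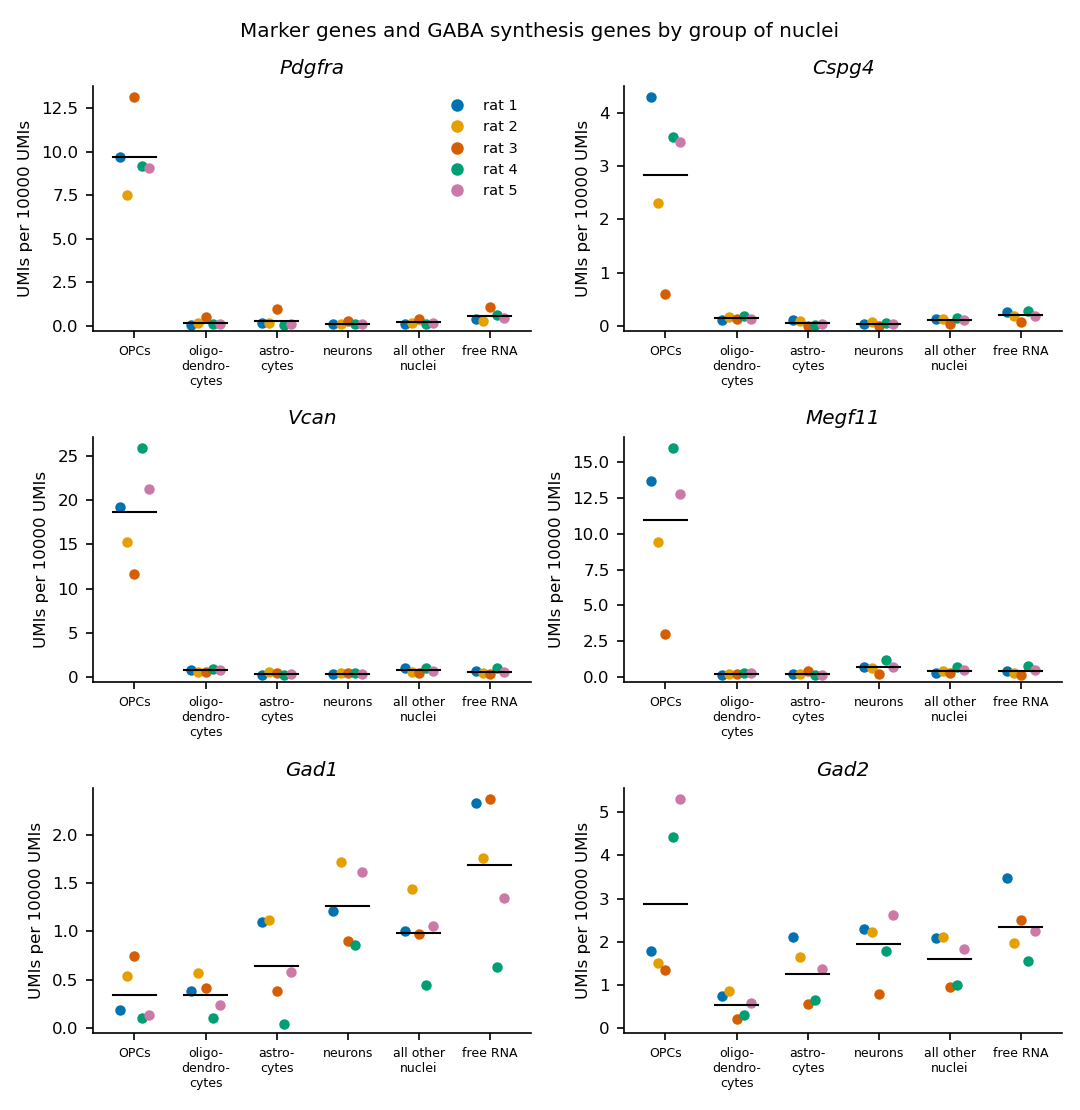
Levels of *Pdgfra*, *Cspg4*, *Vcan*, *Megf11*, *Gad1* and *Gad2* in UMIs per 10000 for 5 rats (1 point a rat) in OPCs, all other nuclei, oligodendrocytes, astrocytes, neurons and free RNA, with the mean as a bar. *Megf11*, which the rule did not use, is at 2.96 to 16 in OPCs and at 0.274 to 0.712 in the other nuclei, and *Gad2* is at 4.43 and 5.31 in the OPCs of rats 4 and 5 and at 1.33 to 1.78 in those of the other 3 rats.

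Which genes set these nuclei apart was asked first against all other nuclei. Of 12469 genes tested on sums per rat with edgeR, 1762 were higher in OPCs (14.1% of genes tested) and 2688 were lower (21.6%) at a Benjamini-Hochberg adjusted p below 0.05. The median log2 fold change over all genes was -0.13. Without rat 3 the counts were 2109 and 2674 of 13316 genes, and without the replicate block 767 and 694 of 12469. With the 715 mixed nuclei left out, which leaves 113 OPCs, 38 of them from rat 3 and 2 from rat 1, they were 487 and 1174 of 11571. The test then has far fewer counts, so a call lost there is given with its fold change and does not show that the mixed nuclei made the difference. A gene could pass the filter on low counts through the group in which it was high, so the counts of gene lists below describe the tested genes only. List counts under another setting belong beside the counts of all genes in that setting, not beside 14.1% and 21.6%.

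The 15 genes furthest above the other nuclei, with at least 1 UMI per 10000 in OPCs, were led by *Susd5*, *Fam89a*, *Col5a3*, *Chst9* and *Rlbp1*. *Susd5*, a membrane protein with a sushi domain, was at 1.66, 1.26, 0.518, 1.43 and 1.37 UMIs per 10000 in rats 1 to 5 and at 0.0147 to 0.0464 in the other nuclei (log2 fold change 5.81 ± 0.26 SE, adjusted p = 5.1e-11). *Col5a3*, a chain of type V collagen, was at 8.20, 7.24, 2.30, 8.74 and 12.6 and at 0.164 to 0.199 in the others (5.43 ± 0.27). *Rlbp1* encodes a retinaldehyde-binding protein known from the visual cycle of the retina. It varied little between rats, at 3.62, 3.21, 3.56, 3.0 and 3.61, and was at 0.0478 to 0.243 in the other nuclei (4.90 ± 0.26). Each of these genes was above the other nuclei in every rat, but the choice of the 15 required this. The groups also did not overlap, which is a description of chosen genes.

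The others of the 15, beside *Megf11* and *Fam89a* (5.56), fell into a few kinds of gene. *Chst9* adds sulfate to carbohydrate chains (5.09 on the log2 scale). *Col27a1* (4.53) and *Emid1* (4.52) encode proteins with collagen sequences and *Itga9* (4.49) the alpha 9 chain of integrins, the cell's receptors for matrix. *Ror2* (4.78) is a receptor for Wnt5a, and *Calcrl* (4.72) is the receptor subunit for calcitonin gene-related peptide and adrenomedullin. *Arhgap31* (4.80) restrains the small GTPases Cdc42 and Rac, and *Afap1l2* (4.47) is an adaptor of actin filaments. *Etv4* (4.76) is a transcription factor that growth factor signalling induces, and *Sema3d* (4.50) is a secreted semaphorin. *Itga9* stood at 8.79, 6.24, 1.78, 11.2 and 8.84 UMIs per 10000 in the OPCs and at 0.211 to 0.406 in the others, so that rat 3 was the lowest but not near the other nuclei.

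**Figure D3:**
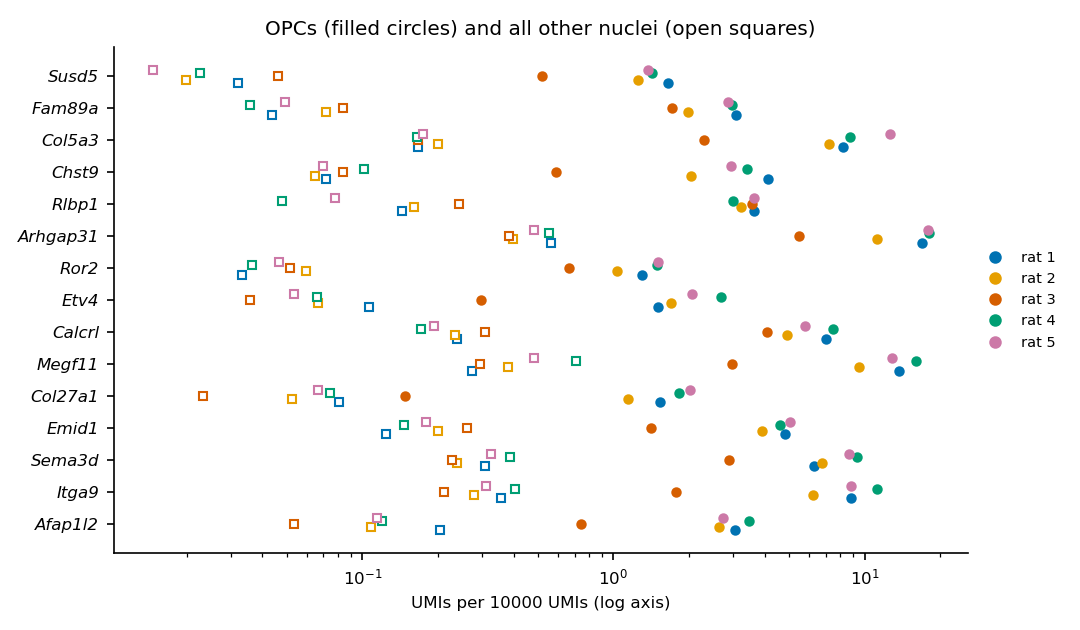
Levels in UMIs per 10000 (log axis) of the genes with the largest log2 fold changes of OPCs against all other nuclei, 1 symbol a rat, filled circles for OPCs and open squares for all other nuclei. The symbols of OPCs lie above those of the other nuclei for each gene, which the choice of the genes required within each rat. *Susd5* is at 0.518 to 1.66 against 0.0147 to 0.0464.

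Each neighbouring cell type gave its own contrast. Against oligodendrocytes, the cells they give rise to, 2461 of 9461 genes were higher in OPCs (26.0%) and 2052 lower (21.7%). The 10 largest differences were *Susd5* (6.66), *Itga9* (6.26), *Etv4* (6.26), *Hunk* (6.08), *Chst11* (6.06), *Chst9* (6.04), *Prrx1* (6.02), *Sema3d* (6.01), *Sema5b* (5.97) and *Pcdh15* (5.97), all on the log2 scale. *Prrx1* is a homeobox transcription factor, and in OPCs it was at 1.48 to 4.47 UMIs per 10000, in oligodendrocytes at 0.0197 to 0.0908 and in astrocytes at 1.54 to 3.20. Against astrocytes 1581 of 8930 genes were higher (17.7%) and 1841 lower (20.6%). *Megf11* (5.94), *Itga9* (5.93), *Col5a3* (5.73), *Susd5* (5.57), *Calcrl* (5.40), *Sema5b* (5.20), *Myt1* (5.15), *Pcdh15* (5.13), *Gask1b* (5.09) and *Lama4* (4.92) were the 10 furthest above. Against neurons 2080 of 9353 were higher (22.2%) and 2040 lower (21.8%), led by *Arhgap31* (6.78), *Susd5* (6.57), *Fam89a* (6.54), *Col5a3* (6.34) and *Prrx1* (6.32). *Susd5* was among the 10 in each of these 3 contrasts, which share the same OPC sums.

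Of 18 genes of chondroitin sulfate proteoglycans, their links and their synthesis that the rule did not use, 12 were higher in OPCs than in all other nuclei and 2 lower, with a median log2 fold change of 1.55 against -0.13 over all genes, of which 14.1% were higher and 21.6% lower. Without rat 3 the counts against all other nuclei were the same, and with the mixed nuclei left out they were 8 and 1 of 17 (487 and 1174 of 11571 genes). Against astrocytes 8 of 16 were higher and 5 lower (median 0.58), beside 17.7% and 20.6% of all genes. *Xylt1*, the xylosyltransferase that starts each chondroitin sulfate chain, led at 4.32 ± 0.17 (SE, adjusted p = 2.1e-11).

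*Chst11*, which sulfates the chains, stood at 15.2, 9.37, 3.04, 15.5 and 13.8 UMIs per 10000, against 0.573 to 1.02 in the other nuclei (3.66 ± 0.22). *Tnr*, the glycoprotein tenascin-R that crosslinks perineuronal matrix, stood at 25.1, 18.1, 6.52, 25.9 and 18.3, against 1.32 to 2.56 (3.28 ± 0.20). *Ptprz1*, a receptor phosphatase that carries chondroitin sulfate, stood at 36.6, 31.8, 19.3, 33.4 and 34.5, against 2.33 to 3.77 (3.28 ± 0.21). For each of these the OPCs of every rat were above the other nuclei of every rat, and the naming rule had asked for a rise within each rat.

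The proteoglycan cores differed between the glia. *Cspg5* (2.81), *Acan* (3.44), *Ncan* (1.56) and *Bcan* (1.35) were all higher in OPCs than in all other nuclei, although the call for *Bcan* was lost without the mixed nuclei (0.42, adjusted p = 0.64). Against astrocytes *Bcan*, brevican, was lower in OPCs (-1.36 ± 0.16, adjusted p = 1.4e-05), *Tnr* was higher (4.73 ± 0.26) and *Ptprz1* was higher (1.22 ± 0.19, adjusted p = 0.00014). *Ncan*, neurocan, was different from astrocytes by -0.54 (adjusted p = 0.0268, lower in 4 of 5 rats), a call that was lost in 6 of its alternatives. The 2 link proteins that were lower than in all other nuclei were *Hapln2*, found at the nodes of myelinated axons (-2.01), and *Hapln4* (-1.13), whose call was lost with the mixed nuclei left out while its fold change was -1.55 (adjusted p = 0.19).

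Of 27 lineage transcription factors tested, 17 were higher in OPCs than in all other nuclei and 3 lower (median log2 fold change 0.97), beside 14.1% and 21.6% of all genes. *Sox5* and *Sox6*, relatives of Sox10 known to hold back differentiation, were both among the higher. *Sox5* stood at 6.60, 6.74, 3.33, 8.19 and 8.26 UMIs per 10000 against 0.441 to 0.599 in the other nuclei (3.64 ± 0.19 SE), and *Sox6* at 30.3, 25.4, 14.5, 32.0 and 30.2 against 1.91 to 3.24 (3.44 ± 0.20). *Etv4* had 1.5, 1.69, 0.296, 2.67 and 2.06, against 0.0357 to 0.106. *Myt1*, a zinc finger factor of the lineage, was higher by 3.86 ± 0.23.

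The factors shared by the whole lineage gave smaller differences. *Olig2* stood at 0.879, 0.920, 0.518, 1.13 and 1.38 UMIs per 10000 and was higher than in all other nuclei (2.04 ± 0.16) and than in oligodendrocytes (1.17 ± 0.17, adjusted p = 0.00010). *Sox10*, at 2.53, 2.32, 0.370, 2.50 and 2.75, was higher than in all other nuclei (1.36 ± 0.13), and its difference from oligodendrocytes did not pass the test (0.18 ± 0.10, adjusted p = 0.18). *Olig1* was higher than in all other nuclei (0.97 ± 0.16, and 0.67 without the mixed nuclei, where it lost its call), and its difference from oligodendrocytes was 0.32 (adjusted p = 0.038), which was lost in 9 of its alternatives. The lower ones were *Nkx6-2* (-1.12), a homeobox factor of myelinating cells, *Prox1* (-0.58) and *Id4*. With the mixed nuclei left out 10 of 24 factors were higher and 0 lower (edgeR), beside 487 and 1174 of 11571 genes. There *Nkx6-2* (-2.13, adjusted p = 0.091) and *Prox1* (-1.26, adjusted p = 0.081) lost their calls at larger fold changes. Without the replicate block 12 of 27 were higher and 0 lower, beside 767 and 694 of 12469 genes. *Prox1* also lost its call without rat 4 (adjusted p = 0.22).

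Maturation was asked with 2 lists, of committed precursors and of myelin. Of 21 myelin and mature oligodendrocyte genes tested, 20 were lower in OPCs than in all other nuclei and only *Il33* was higher, at 1.98 (adjusted p = 5.7e-05), and at 1.61 (adjusted p = 0.098) without the mixed nuclei. Against oligodendrocytes the counts were also 20 lower and 1 higher of 21, against astrocytes 9 lower and 3 higher, and against neurons 0 lower and 20 higher. Over all genes the shares lower were 21.6% against all other nuclei, 21.7%, 20.6% and 21.8%, and those higher 14.1%, 26.0%, 17.7% and 22.2%. The counts against oligodendrocytes and all other nuclei follow in part from the rule, which caps *Mog* in OPCs and requires it in oligodendrocytes. Without the replicate block 8 of the 21 were lower than in all other nuclei, beside 694 of 12469 genes.

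*Mbp*, myelin basic protein, stood at 17.7, 35.7, 18.1, 9.23 and 14.9 UMIs per 10000 in OPCs, at 70.5 to 83.8 in oligodendrocytes and at 52.4 to 99.0 in free RNA. Every OPC value was below the free RNA of the same library, and the part of free RNA in this level was not tested. The difference from oligodendrocytes was -2.23 ± 0.22 on the log2 scale. Against all other nuclei it was -1.23, and with a minimum of 1500 UMIs this became -0.90 (adjusted p = 0.063). *Opalin*, a late oligodendrocyte membrane protein, was lower at -2.27 ± 0.18 and *Aspa*, which breaks down N-acetylaspartate, at -2.31 ± 0.25.

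Of 15 committed precursor genes tested, 8 were higher than in all other nuclei and 3 lower, with a median of 0.87, beside 14.1% and 21.6% of all genes. *Bcas1*, a marker of premyelinating cells, stood at 44.5, 40.6, 13.2, 40.8 and 29.6 UMIs per 10000, against 7.79 to 29.5 in oligodendrocytes and 6.34 to 11 in free RNA. It was detected in 96.3% of OPCs and 93.1% of oligodendrocytes. In each rat the OPCs were the higher group, with a log2 fold change of 0.70 ± 0.13 against oligodendrocytes (adjusted p = 0.00069, and 0.21 without the replicate block).

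*Tns3*, a focal adhesion protein, was also above oligodendrocytes (0.59 ± 0.12, adjusted p = 0.0018), a call lost without the mixed nuclei (0.38, adjusted p = 0.34). *Itpr2*, a calcium release channel (2.13), *Tcf7l2*, a Wnt effector (1.62), and *Lims2* (2.49) were above all other nuclei.

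*Enpp6* and *Myrf* lay below oligodendrocytes, and *Gpr17* was rare. *Enpp6*, a choline phosphodiesterase of newly formed oligodendrocytes, stood at 1.22, 0.756, 0.296, 1.10 and 0.518 in OPCs and at 1.82 to 2.64 in oligodendrocytes (-1.57 ± 0.20, adjusted p = 4.1e-05). It was detected in 63 of 828 OPCs (7.61%) and in 31.7% of oligodendrocytes. *Myrf*, the regulator of myelin genes, was below oligodendrocytes at -2.13 ± 0.18 (adjusted p = 1.3e-06). *Gpr17*, a receptor that marks the step between precursor and oligodendrocyte, was found in 21 of 828 OPCs (2.54%), 12 of 8718 oligodendrocytes (0.138%) and none of 1529 astrocytes. By rat it was in 2, 4, 0, 5 and 10 OPCs.

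The 21 OPCs with *Gpr17* were set against the other OPCs of rats 1, 2, 4 and 5. Of 4411 genes tested with edgeR, 3 were higher (0.068%) and 0 lower (0.0%), with 299 at an unadjusted p below 0.05, and DESeq2 called 0. They were *Rasgef1b*, an exchange factor for Ras family GTPases (2.58 ± 0.52 SE, adjusted p = 0.0016, higher in 3 of 4 rats), the ephrin receptor *Ephb1* (1.5 ± 0.36, adjusted p = 0.032, 4 of 4) and *Osbp2* (1.97 ± 0.47, adjusted p = 0.032, 4 of 4). They rest on 20, 53 and 28 UMIs in the *Gpr17* nuclei. All 3 calls were lost without rat 2 or rat 5. Of the commitment genes, *Tns3* (1.23, adjusted p = 0.091) and *Enpp6* (1.60, adjusted p = 0.18) did not pass.

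**Figure D4:**
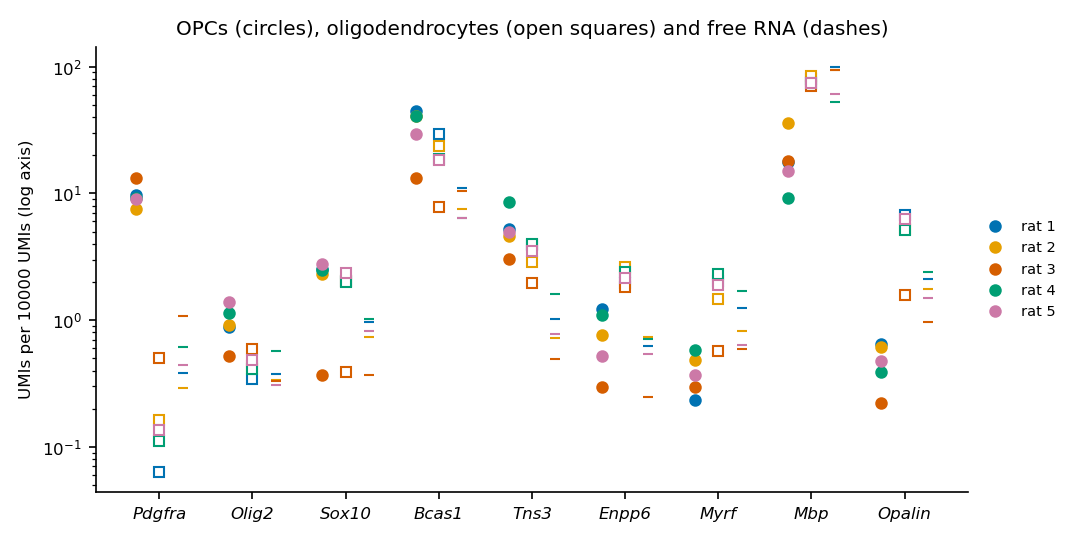
Levels in UMIs per 10000 (log axis) of genes of the precursor, committed and myelinating stages, 1 symbol a rat, circles for OPCs, open squares for oligodendrocytes and dashes for free RNA. *Bcas1* is at 13.2 to 44.5 in OPCs and 7.79 to 29.5 in oligodendrocytes, while *Mbp* is at 9.23 to 35.7 in OPCs and at 70.5 to 83.8 in oligodendrocytes.

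Some OPCs carried several cell cycle genes. Of 41 cell cycle genes measured, 21 were abundant enough to test against all other nuclei, 17 of them were higher and 1 was lower, beside 14.1% and 21.6% of all genes. The other 20 did not pass the filter on low counts, and a rare gene such as *Top2a* could pass it because it was high in OPCs, so this count is in part set by the filter. The lower one was *Anln* (-1.66), a cytokinesis protein that oligodendrocytes also make. Without rat 3 it was 23 higher and 1 lower of 28 (2109 and 2674 of 13316 genes), and without the mixed nuclei 5 and 1 of 11 (487 and 1174 of 11571). *Top2a*, the DNA topoisomerase of dividing cells, stood at 0.207, 0.181, 0.0741, 0.321 and 0.385 UMIs per 10000, against 0.00929 to 0.0151 in the other nuclei (4.37 ± 0.33 SE, adjusted p = 2.3e-08). *Cenpf*, a kinetochore protein (4.22), *Dtl*, which acts in DNA replication control (5.27), and *Diaph3* (3.87) were the other largest.

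At least 1 cell cycle gene was detected in 413 of 828 OPCs (49.9%), at least 3 in 76 (9.18%), at least 5 in 38 (4.59%) and at least 10 in 19 (2.29%). By rat, 16.3%, 7.67%, 9.21%, 8.25% and 10.9% of the OPCs had 3 or more. Of oligodendrocytes 4.89% had 3 or more, of astrocytes 2.29% and of neurons 12.4%, and OPCs were above neurons in 2 of 5 rats. Depth differs between cell types, so nuclei with at least 1000 UMIs were also thinned to 1000 UMIs. Then 21.2% of OPCs, 32.3% of oligodendrocytes, 15.1% of astrocytes and 18.5% of neurons had 1 or more, with oligodendrocytes the highest. Of these groups 6.17%, 4.10%, 1.48% and 1.51% had 2 or more, but oligodendrocytes were above OPCs in rat 3 (9.47% against 8.70%) and rat 4 (5.72% against 4.15%). The genes counted include *Anln*, which oligodendrocytes also make, and its part in these shares was not tested. For 3 or more, OPCs were the highest, with 27 of 794 (3.40%). The others had 22 of 8093 oligodendrocytes (0.272%), 1 of 1214 astrocytes (0.0824%) and 0 of 2840 neurons. The mean over rats was 4.06% ± 1.47 in OPCs and 0.474% ± 0.412 in oligodendrocytes (SD, n = 5), higher in 5 of 5 rats (p = 0.0625, two-sided exact permutation of signs, the smallest that 5 pairs allow).

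The proliferation marker *Mki67* was also higher in OPCs by its summed counts. Its level was 0.336, 0.181, 0.0741, 0.531 and 0.703 UMIs per 10000 in OPCs (1.83 ± 0.23 against all other nuclei and 2.21 ± 0.24 against oligodendrocytes). It was found in 92 OPCs (11.1%), 2.57% of oligodendrocytes and 8.85% of the deeper neurons, and after thinning in 3.53%, 0.914% and 1.55%. The thinned share was above oligodendrocytes in 4 of 5 rats (p = 0.125, two-sided exact permutation of signs), with rat 3 the exception. Of its 137 UMIs in OPCs, 85 lay in nuclei with fewer than 5 cell cycle genes. *Top2a* was found in 23 OPCs (2.78%) and in 0.184% of oligodendrocytes.

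The 38 OPCs with 5 or more cell cycle genes were set beside the other 790 as a description. Their summed levels were 10.7 UMIs per 10000 for *Megf11* and 23.0 for *Sox6*, and in the other OPCs these were 12.3 and 28.7. *Pdgfra*, which the rule used, was 7.95 against 8.84. *Mbp* was 14.3 against 21.8, and *Top2a*, among the genes that chose the 38, was 3.84 against 0.0126. The median depth of the 38 was 5117.5 UMIs and that of the others 3589.5, and these sums over few nuclei were not tested.

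Among growth factor and morphogen receptors, 9 of 34 were higher in OPCs than in all other nuclei and 12 lower, with a median of -0.07, beside 14.1% and 21.6% of all genes. With the mixed nuclei left out it was 1 higher and 8 lower of 33 (487 and 1174 of 11571 genes), and without the replicate block 4 and 5 of 34 (767 and 694 of 12469). *Notch1*, the receptor that restrains differentiation in this lineage, stood at 1.35, 1.07, 0.741, 1.16 and 1.26 UMIs per 10000 against 0.137 to 0.315 (2.47 ± 0.18 SE, adjusted p = 1.4e-08). *Fgfr1* was higher (1.19 ± 0.15) and *Fgfr2*, which oligodendrocytes carry, lower (-2.0 ± 0.22). The endothelin receptor *Ednrb* (1.05) and the neurotrophin-3 receptor *Ntrk3* (0.93) were higher, and the epidermal growth factor receptor *Egfr* (-2.18) was lower. The calls of *Fgfr1* (0.11), *Ednrb* (0.76) and *Ntrk3* (0.49) were lost with the mixed nuclei left out.

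Receptor tyrosine kinases induce feedback genes that damp their own signal. Of 9 such genes listed, 8 were tested and all 8 were higher in OPCs than in all other nuclei (14.1% of all genes), and against oligodendrocytes 6 of 6 tested were higher (26.0% of all genes). Against astrocytes 3 of 5 were higher and 0 lower (17.7% and 20.6% of all genes), and against neurons 4 of 5 and 0 (22.2% and 21.8%). The summed level of the list was 7.12 to 11.8 UMIs per 10000 in OPCs and 6.83 to 9.24 in microglia, of which rat 3 had none. Against all other nuclei it was 8 of 9 without rat 3 (2109 of 13316 genes), 3 of 7 without the mixed nuclei (487 of 11571) and 4 of 8 without the replicate block (767 of 12469). *Spry4*, an inhibitor of the Ras pathway, stood at 0.388, 0.238, 0.0741, 0.232 and 0.372 against 0.00714 to 0.0474 in the other nuclei (3.06 ± 0.30), and its relative *Spry1* was higher by 2.99 ± 0.39. *Dusp6*, which dephosphorylates ERK, stood at 0.285, 0.115, 0.815, 0.122 and 0.199 (2.16 ± 0.28), with rat 3 the highest. *Etv4* and *Etv5* are on this list and on that of transcription factors.

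Of 19 ligands tested, 8 were higher and 7 lower (14.1% and 21.6% of all genes), with a median of 0.46. Without rat 3, 21 ligands were tested, 8 higher and 9 lower (2109 and 2674 of 13316 genes). The median was then -0.30, which is not over the same genes. Without the mixed nuclei 4 were higher and 2 lower of 19 (487 and 1174 of 11571 genes). *Dll1*, a Notch ligand, stood at 0.466, 0.468, 0.518, 0.376 and 0.703 UMIs per 10000 against 0.0527 to 0.0821 (3.04 ± 0.22), and *Jag1*, another, was higher by 2.52 ± 0.31. *Pdgfd* stood at 2.04, 3.02, 1.70, 2.46 and 3.11 against 0.208 to 0.602 (2.41 ± 0.18). *Pdgfa*, the main ligand of the receptor that defines these cells, was lower than in all other nuclei (-1.06 ± 0.19, and -0.67 without the mixed nuclei, where it lost its call), while *Pdgfc* was 0.71 ± 0.16 higher with all nuclei and -0.0060 without the mixed ones.

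*Vegfa*, the vascular endothelial growth factor, stood at 2.77, 2.08, 13.8, 3.24 and 3.36 in OPCs and at 0.0978 to 2.38 in oligodendrocytes. Rat 3 was the highest library in the other nuclei (4.33), oligodendrocytes, astrocytes (14.5) and free RNA (3.0) as well. The difference from all other nuclei was 2.0 ± 0.17 (adjusted p = 7.3e-08), and in each rat the OPCs were the higher, as the naming rule required. Of the lower ligands, the neurotrophin *Bdnf* was at -1.96 and *Fgf9* at -1.76, and without the mixed nuclei *Fgf9* was at -2.67 (adjusted p = 0.094).

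Receptors for glutamate were divided by subunit. Of 23 tested, 10 were higher than in all other nuclei and 9 lower (median -0.01), while against oligodendrocytes 16 of 20 were higher and 2 lower. Over all genes these shares were 14.1% and 21.6%, and 26.0% and 21.7%. Without the mixed nuclei it was 4 higher and 8 lower of 22 against all other nuclei (487 and 1174 of 11571 genes), and the calls of *Gria2* (0.66) and *Grm5* (0.70) were lost. Among the subunits of AMPA receptors, the fast glutamate channels, *Gria2* (0.88 ± 0.18), *Gria3* (1.35 ± 0.18) and *Gria4* (1.26 ± 0.20) were higher and *Gria1* was lower (-1.47 ± 0.18). *Gria4* stood at 26.8, 24.9, 21.6, 33.0 and 28.5 UMIs per 10000 in OPCs, at 6.46 to 16 in all other nuclei and at 16.1 to 27.1 in neurons. The difference from neurons was 0.38 ± 0.12 (adjusted p = 0.016), a call lost in 6 of its alternatives.

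The NMDA receptor subunits split likewise. *Grin3a*, which lowers the calcium entry of the receptor, stood at 5.79, 4.07, 2.37, 4.32 and 4.02 against 0.552 to 0.969 (2.35 ± 0.20, adjusted p = 9.9e-08), and *Grin2a* (-2.36) and *Grin2b* (-1.74) were lower. Of the metabotropic receptors, *Grm7* (1.45) and *Grm5* (1.10) were higher and *Grm8* (-3.17) and *Grm3* (-2.43) lower. *Grm3* is strong in mature oligodendrocytes and is on the myelin list too.

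Of 13 GABA receptor genes, 3 were higher than in all other nuclei and 8 lower (median -0.40), and against oligodendrocytes 10 of 11 were higher and none lower. Over all genes the shares were 14.1% and 21.6%, and 26.0% and 21.7%, so that 3 of 13 is not far from the share of all genes. *Gabrg1*, a gamma subunit, stood at 2.35, 2.51, 1.56, 2.70 and 2.40 UMIs per 10000 against 0.490 to 0.767 (1.85 ± 0.16, adjusted p = 1.4e-07). *Gabra2* (0.96) and *Gabra3* (0.87) were higher, and with the mixed nuclei left out they were at 0.30 and 0.53 and both calls were lost. *Gabra5* (-2.08) and *Gabrb1* (-0.97) were lower, and *Gabra5* was at -1.98 there (adjusted p = 0.13). With the mixed nuclei left out 1 of 13 was higher and 4 lower than in all other nuclei (487 and 1174 of 11571 genes). Without the replicate block 3 were higher and 3 lower (767 and 694 of 12469 genes). Against neurons 1 of 12 was higher and 8 lower (22.2% and 21.8% of all genes).

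Voltage-gated and potassium channels gave 11 higher and 14 lower of 38 against all other nuclei (median 0.05), 24 higher and 4 lower of 34 against oligodendrocytes, and 4 higher and 21 lower of 36 against neurons. Over all genes the shares were 14.1% and 21.6%, 26.0% and 21.7%, and 22.2% and 21.8%. Without the mixed nuclei 3 of 37 were higher and 7 lower than in all other nuclei (487 and 1174 of 11571 genes), and the call of *Scn8a* (0.58) was lost. *Kcnh8*, a potassium channel of the ether-a-go-go family, led at 1.14, 2.13, 0.815, 1.94 and 1.06 UMIs per 10000 against 0.288 to 0.408 (2.07 ± 0.20). *Kcnq5* (1.44) and the sodium channel *Scn8a* (0.91) were higher. *Scn9a* (-3.08) and the calcium channel genes *Cacna1g* (-2.29) and *Cacna2d1* (-1.90) were lower. *Kcnj10*, the inward rectifier Kir4.1 of glia, was 0.43 ± 0.14 higher (adjusted p = 0.021), and -0.65 (adjusted p = 0.42) without the mixed nuclei. Its call was also lost without rat 2 (adjusted p = 0.16), rat 5 (0.071), the filter on low counts (0.19) or the replicate block (0.58).

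Of genes of synaptic adhesion and scaffolds, 25 of 42 were higher than in all other nuclei and 8 lower (median 0.98), against oligodendrocytes 35 and 3 of 39, and against neurons 17 and 14 of 41. Over all genes the shares were 14.1% and 21.6%, 26.0% and 21.7%, and 22.2% and 21.8%. Without the mixed nuclei 13 of 42 were higher and 8 lower than in all other nuclei (487 and 1174 of 11571 genes). *Pcdh15*, a protocadherin known from the tip links of hair cells, stood at 18.8, 16.8, 11.3, 26.3 and 22.4 UMIs per 10000 against 0.726 to 2.10 (3.77 ± 0.25, adjusted p = 5.0e-09). *Opcml*, a cell adhesion molecule of the IgLON family, stood at 33.2, 33.3, 11.9, 41.7 and 32.9 against 4.29 to 7.02 (2.46 ± 0.23).

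*Slitrk2* (2.30) and *Dscam* (2.07), which act in synapse formation and neurite spacing, were also higher. *Nlgn1*, neuroligin 1, was higher than in all other nuclei (1.48 ± 0.20) and than in neurons (0.61 ± 0.13, adjusted p = 0.0011, and 0.31 without the mixed nuclei, where the call was lost with adjusted p = 0.27). Other members that neurons use were lower: *Cntn5* (-2.99), *Il1rapl2* (-2.72) and *Cntnap4* (-2.34).

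Axon guidance genes gave 9 higher and 17 lower of 36 against all other nuclei (median -0.33) and 17 higher and 7 lower of 27 against oligodendrocytes. Over all genes the shares were 14.1% and 21.6%, and 26.0% and 21.7%, so that 7 of 27 is near the share of all genes. Without the mixed nuclei 4 of 36 were higher and 14 lower than in all other nuclei (487 and 1174 of 11571 genes). *Sema3d* stood at 6.31, 6.74, 2.89, 9.34 and 8.63 UMIs per 10000 against 0.228 to 0.386, and *Ntn1*, netrin 1, at 6.73, 6.01, 3.26, 8.41 and 7.07 against 0.771 to 1.69 (2.29 ± 0.21). *Sema5b* (3.15) and *Sema5a* (2.40), transmembrane semaphorins, were higher. *Epha3* (-3.0), *Efna5* (-2.82) and the netrin receptor *Unc5d* (-2.65) were lower.

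**Figure D5:**
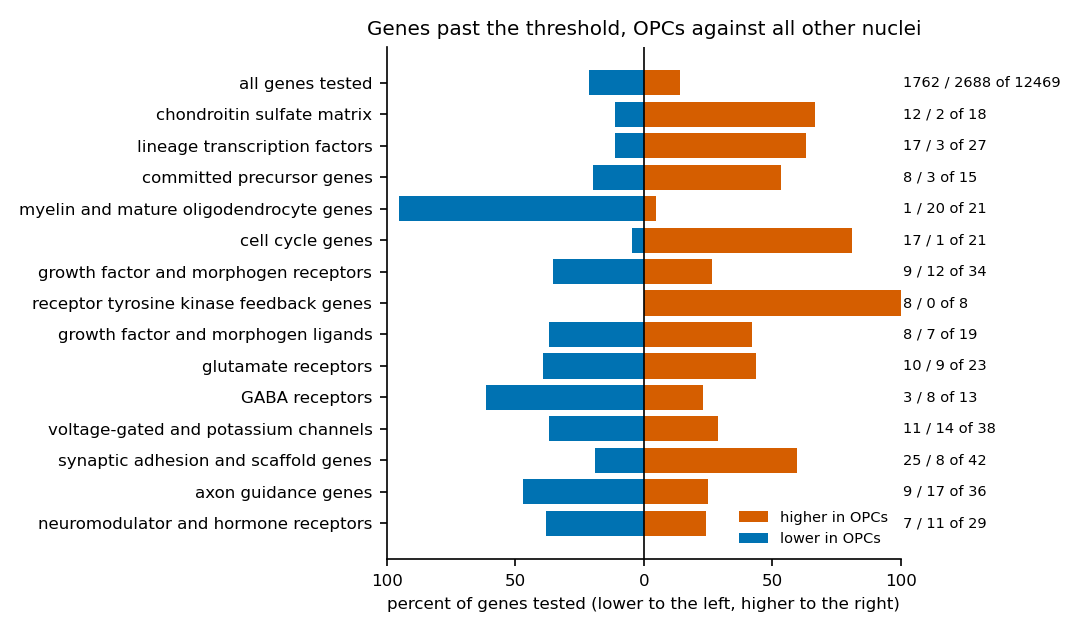
Percent of the tested genes of each list that were higher (right) or lower (left) in OPCs than in all other nuclei at an edgeR adjusted p below 0.05, with the share over all genes tested. Feedback genes of receptor tyrosine kinases are at 8 of 8 higher and the myelin list at 20 of 21 lower, against 14.1% and 21.6% of all genes.

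Of 45 receptors for neuromodulators and hormones, 29 were abundant enough to test, of which 7 were higher and 11 lower than in all other nuclei (median -0.45), beside 14.1% and 21.6% of all genes. With the mixed nuclei left out it was 3 and 8 of 27 (487 and 1174 of 11571 genes). *Crhr1*, the receptor for corticotropin-releasing hormone, stood at 0.698, 0.312, 0.0741, 0.587 and 0.425 UMIs per 10000 against 0.0446 to 0.0973 (2.33 ± 0.24, adjusted p = 9.9e-07). *Ghr*, the growth hormone receptor, was higher by 1.52 ± 0.18. *Adora1*, the inhibitory adenosine receptor, stood at 0.698, 0.419, 1.04, 1.11 and 0.584 against 0.214 to 0.620 (0.98 ± 0.18, adjusted p = 0.00032, and 0.085 without the replicate block).

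The dopamine receptor *Drd2* (-2.04 ± 0.27) and the mu opioid receptor *Oprm1* (-2.13 ± 0.21) were lower than in all other nuclei, as were the serotonin receptors *Htr4* (-2.79) and *Htr2c* (-2.61). The kappa opioid receptor *Oprk1* was at 0.0664 to 0.0776 in OPCs and 0.0518 to 0.0768 in the others, and did not pass the test (0.22 ± 0.33, adjusted p = 0.65). *Glp1r*, the receptor the study is about, had a UMI in 3 of 828 OPCs (0.362%), 7 of 8718 oligodendrocytes (0.0803%), 3 of 1529 astrocytes (0.196%) and 41 of 2880 neurons (1.42%). After thinning it was in 1 of 794 OPCs, 1 of 8093 oligodendrocytes, 1 of 1214 astrocytes and 4 of 2840 neurons, too few to compare the groups.

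*Gad2* was the only neuron marker of the 8 tested that was not lower in OPCs than in all other nuclei. It encodes 1 of the 2 enzymes that make GABA, and *Gad1* the other. *Gad2* stood at 1.78, 1.5, 1.33, 4.43 and 5.31 UMIs per 10000 in the OPCs of rats 1 to 5, and in the free RNA of the same libraries at 3.48, 1.96, 2.50, 1.55 and 2.25. It was thus above free RNA in rats 4 and 5 and below it in rats 1, 2 and 3. *Gad1* stood at 0.181, 0.542, 0.741, 0.0996 and 0.133 in OPCs and at 0.630 to 2.37 in free RNA, below it in every rat.

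The tests of *Gad2* differed by the comparison. Against oligodendrocytes the log2 fold change was 2.31 ± 0.42 (adjusted p = 0.00064) and against astrocytes 1.07 ± 0.36 (adjusted p = 0.030, lost without rat 3, 4 or 5 and without the replicate block). Against all other nuclei (0.77 ± 0.31, adjusted p = 0.068) and neurons (0.52 ± 0.25, adjusted p = 0.10) it did not pass. The test against all other nuclei did pass without rat 1, 2 or 3 (adjusted p = 0.014, 0.0060 and 0.029), with a minimum of 1500 UMIs (0.97, adjusted p = 0.035) and under 3 other settings, and that against neurons without rat 2 (adjusted p = 0.012) and under 2 other settings. *Gad1* was lower than in all other nuclei (-1.84 ± 0.24, adjusted p = 9.5e-06). A *Gad2* UMI was found in 390 of 828 OPCs (47.1%), and by rat in 61.2%, 31.0%, 17.1%, 62.9% and 67.8%. After thinning to 1000 UMIs it was found in 22.9% of OPCs, 15.6% of neurons, 13.3% of astrocytes and 5.47% of oligodendrocytes, and *Gad1* in 2.64%, 11.8%, 8.90% and 3.21%. The pooled order of *Gad2* did not hold in rat 2, with 10.8% of OPCs, 16.8% of neurons and 13.6% of astrocytes. In rat 1 the order held with close values of 20.4%, 20% and 18.7%, and in rat 3 it held with 13.0%, 8.08% and 6.85%. The part of free RNA and of neuron RNA in the *Gad2* counts was not tested beyond these values.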

How the data were processed

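Nuclei of VTA punches from 5 rats were profiled with the 10x Genomics 3′ v3.1 assay, 1 library per rat. The authors deposited unfiltered UMI counts of 32883 genes per barcode, not normalized, made with Cell Ranger (8.0.1 in the submitters' notes, 4 in the matrix headers). The genome build is not given in the sources used here. The SoupX, SCTransform, integration and doublet steps of the study came later and are not in these counts. Libraries held 10193355 to 88576210 UMIs.

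Barcodes passed with at least 600 UMIs, more than 200 and fewer than 5000 genes and under 5% mitochondrial UMIs. Oligodendrocytes had at least 2 *Mog* UMIs and *Mog* at 10 or more per 10000. Astrocytes had at least 2 of *Slc1a2*, *Aqp4* and *Gja1* with 3 UMIs summed, and these genes stayed out of that contrast. Neurons had at least 2 *Nyap2* UMIs. The members and gene lists were chosen with earlier results of these data known.

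Counts were summed per rat and group and tested with edgeR 4.0.16 in R 4.3.3 (quasi-likelihood, TMM, filterByExpr), with the rat as a block, and p-values were Benjamini-Hochberg adjusted over all genes tested, with a threshold of 0.05. Both sums of a pair come from the same animal, and their deviations correlated at 0.341 to 0.717. DESeq2 1.42.0 was an alternative. Named genes were up to 4 highest and 3 lowest per list among those past the threshold in the same direction in every rat, the 15 (or 10) largest differences, and genes listed beforehand whatever their values, such as *Mbp* and *Gria1*. *Cspg5*, *Acan*, *Ncan*, *Bcan*, *Id2*, *Id4*, *Grin2a*, *Grin2b*, *Grm5* and *Nlgn1* were named after their values were seen. Scrublet (scanpy 1.11.5) marked 3 of 35234 barcodes and had not worked, so doublets were limited only by the marker rule. The script was tested on simulated data. Listed genes missing from the table, such as *Nrg3*, were not analysed here. A few genes that the naming rule picked are not reported here.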

Additional observations from a re-analysis of the deposited data

Results flagged for a closer look

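In all, 5 values lay far from those of the other rats, all from rat 3, among 42 sets of 5 rats examined. The sets share the same 5 libraries, and *Id2* was named after its values were seen. No chance rate can therefore be set beside their number. *Ptprz1* was 19.3 UMIs per 10000 in the OPCs of rat 3 (median of the 5 rats 33.4), and *Sox10* was 0.370 (median 2.50). *Dusp6* was 0.815 (median 0.199), *Vegfa* 13.8 (median 3.24) and *Id2* 3.33 (median 0.197). In each case the gap to the nearest rat was over 0.71 of the range. The free RNA of rat 3 was also the highest of the 5 libraries for *Dusp6* (0.679), *Vegfa* (3.0) and *Id2* (14.4) and the lowest for *Sox10* (0.366), and the part of free RNA was not tested.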

How the results depend on the processing

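The choice of nuclei, the replicate block and the filter on low counts all moved the results, and which moved them most differed by comparison. The share of OPCs, 2.66%, was 4.02% with a minimum of 1500 UMIs, 0.443% with mixed nuclei left out and 2.29% to 2.90% without each rat in turn. Without the replicate block the genes higher and lower in OPCs were 767 and 694 against all other nuclei, 1590 and 1048 against oligodendrocytes, 792 and 663 against astrocytes, 934 and 1040 against neurons, and 0 and 0 in the *Gpr17* split. With mixed nuclei left out they were 487 and 1174 of 11571 genes against all other nuclei and 633 and 834 of 4741 against oligodendrocytes. Against astrocytes they were 436 and 534 of 3044, and against neurons 480 and 1272 of 6506. With all nuclei, 12469, 9461, 8930 and 9353 genes were tested, so these counts are not over the same genes. At 1500 UMIs 1736 of 11626 genes were lower than in all other nuclei. Without a filter on low counts 3243 of 21566 genes were lower than in oligodendrocytes and 3331 of 22524 than in neurons. Both are smaller shares of the genes tested than with the filter (21.7% and 21.8%).

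Without each rat in turn, 1339 to 2109 genes were higher and 1870 to 2674 lower than in all other nuclei, 2096 to 2928 and 1660 to 2400 than in oligodendrocytes, 1064 to 1637 and 1260 to 1970 than in astrocytes, and 1537 to 2344 and 1608 to 2363 than in neurons. The number of genes tested also changed with the rat left out. In the *Gpr17* split 0 to 17 genes were higher and 0 to 4 lower. That split had 6 higher with DESeq2 size factors, 0 with DESeq2, and 0 higher and 4 lower without the filter. Its versions with at least 2 *Gpr17* UMIs (1 nucleus) or mixed nuclei left out (2 rats) were not run.

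For 178 values of named genes, 2152 of 2275 alternatives kept the direction and the side of the threshold, 111 lost the call, 10 gained one and 2 reversed, *Pdgfc* (-0.0060) and *Kcnj10* (-0.65) with mixed nuclei left out. Many of these genes were named because they had already passed the threshold with large differences. The alternatives draw on the same libraries, so the share kept follows in part from that choice and is no independent check. The replicate block accounted for 35 of the lost calls and the mixed nuclei for 27. A value whose gene was not tested in a setting counts neither as kept nor as lost. With mixed nuclei left out 160 values were tested, and at 1500 UMIs 166. The 10 gained calls were all of *Gad2*, 7 against all other nuclei and 3 against neurons. Without the block the calls lost included *Sox10*, *Olig1*, *Mbp*, *Mki67*, *Dusp6*, *Jag1*, *Vegfa*, *Ednrb*, *Adora1*, *Slc6a3* and *Slc4a4* against all other nuclei and *Bcas1* and *Tns3* against oligodendrocytes. The cause was not tested. The setting that left out Scrublet doublets marked 0 OPCs and is not counted. Leaving out nuclei that met the astrocyte rule was chosen after seeing the data (share 2.49%). The OPCs of rat 3 held the fewest UMIs, so its values are the least precise, and what set this rat apart was not tested.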
